A study of Mus musculus with 6 samples.

Results

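The genes described here are the sterol regulator SREBP2 and 6 genes under its control: Hmgcs1, Sqle, Idi1, Fdft1, Cyp51, Insig1 and Srebf2, which encodes SREBP2 itself. They were picked by symbol, 7 of 55401 gene IDs in a table of raw read counts, and all 7 passed the filter on low counts. The table covers 6 aortas in 2 groups of 3. The tested mice were IL16-/-ApoE-/- (called double mutants here), which lack both interleukin-16, a cytokine with CD4 as its receptor, and apolipoprotein E, by which remnant lipoproteins are cleared. The mice they were set against were ApoE-/-, written Apo-/- in the sample titles. The Apoe deletion was thus shared by both groups. Both groups ate a high-fat diet for 24 weeks from an age of 8 weeks, and RNA was taken from the aorta. The series asks how loss of interleukin-16 changes aortic expression after that diet. The labels do not state sex, strain background, which parts of the 2 genes were deleted, or whether a sample was 1 animal or a pool. Any p-value therefore reflects the spread among these samples alone, part of which may be technical.

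SREBP2 is made as a membrane protein of the endoplasmic reticulum. When membrane cholesterol is low, SCAP carries it to the Golgi, where the proteases encoded by Mbtps1 and Mbtps2 release its DNA-binding part. That part enters the nucleus and binds sterol regulatory elements before the genes of cholesterol synthesis and uptake. When cholesterol is high, INSIG proteins hold SCAP and SREBP2 in the endoplasmic reticulum. Srebf2 is among its own targets, and an intron of Srebf2 holds the microRNA gene Mir33, whose product is known to act on Abca1 and other cholesterol efflux genes. Much of this control acts on protein cleavage, which RNA counts do not measure.

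The promoters of Hmgcs1, Idi1 and Srebf2 are printed because these are the genes whose calls changed when 1 library was left out. RefSeq promoter windows (GRCm38.p6) were found for 5 of the 7 genes, Hmgcs1, Idi1, Cyp51, Insig1 and Srebf2. Each line runs 5′ to 3′ from 250 bases before the RefSeq start up to that start or, where it comes first, to the base before the GENCODE gene. Capitals mark the stretch closest to the sterol regulatory element SRE-1, searched on both strands.
Hmgcs1 (chr13:119690101-119690350, plus strand): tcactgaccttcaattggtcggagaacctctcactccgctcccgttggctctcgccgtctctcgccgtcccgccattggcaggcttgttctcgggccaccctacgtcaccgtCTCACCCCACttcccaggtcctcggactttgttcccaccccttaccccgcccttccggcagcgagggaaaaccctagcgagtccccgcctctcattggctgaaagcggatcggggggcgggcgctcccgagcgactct
Idi1 (chr13:8885356-8885500, plus strand): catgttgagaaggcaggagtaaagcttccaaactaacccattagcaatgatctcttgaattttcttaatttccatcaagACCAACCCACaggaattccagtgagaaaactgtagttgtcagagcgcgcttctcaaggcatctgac
Srebf2 (chr15:82147019-82147180, plus strand): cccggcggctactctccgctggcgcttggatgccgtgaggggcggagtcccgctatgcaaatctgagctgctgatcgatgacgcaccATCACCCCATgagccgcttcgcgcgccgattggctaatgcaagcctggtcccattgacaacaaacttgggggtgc
The marked stretch differed from SRE-1 by 1 letter in Hmgcs1 and in Srebf2 and by 2 letters in Idi1. It began 138, 163 and 171 bases before the RefSeq start of Hmgcs1, Srebf2 and Idi1. In Cyp51 the closest stretch had 2 mismatches, 89 bases before the start, and in Insig1 it had 3. Among all 32851 windows of the same 250 bases, 1.65% held a stretch with at most 1 mismatch, 20% with at most 2 and 81.7% with at most 3. SREBP2 is known to act with NF-Y and Sp1. The CCAAT box of NF-Y (CCAAT) lay in all 5 windows against 33.8% of all windows, and the GC box of Sp1 (GGGCGG) in all 5 against 32.7%, both strands counted. These counts cover all 250 bases before the RefSeq start, also those not printed, and in Idi1 both motifs lie outside the printed line. The E-box CACGTG, which SREBPs can also bind, was found only in Insig1 among the 5, against 6.02% of all windows. None of the marked stretches overlapped 1 of these 3 motifs. These are matches of letters and not sites shown to be bound.

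The mature microRNA of the Srebf2 intron is shown for its link to the gene, with its seed (bases 2 to 8) in capitals.
mmu-miR-33-5p (chr15:82198127-82198147, plus strand): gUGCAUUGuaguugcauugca
Mir33 had 0 counts in every library. The libraries were made from polyadenylated RNA, which does not capture mature microRNAs, so this says nothing of its level.

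Library totals were 42861980 to 47208779 counts in the double mutants and 65730552 to 85568269 counts in ApoE-/-. Il16 was at 7.93 to 12.2 CPM (the depth-scaled read count, here with TMM library sizes) in the double mutants and at 15.1 to 28.7 CPM in ApoE-/-, and did not pass the test (log2 fold change -1.16, SE 0.32, edgeR quasi-likelihood adjusted p = 0.163). Apoe, targeted in both groups, was at 137 to 183 CPM in the double mutants and 20.9 to 45 CPM in ApoE-/- (log2 fold change 2.34, SE 0.33, adjusted p = 0.0369). Counts over a whole gene check a deletion only in part. The library labelled ApoE-/- 1 stood apart: it had 474 CPM of Xist and 0.143 CPM of the Y-linked Ddx3y, against 0.497 to 6.21 CPM and 70.1 to 136 CPM in the other 5 libraries, so by these genes the ApoE-/- group was of mixed sex. Sex and the other differences of that library cannot be told apart. All 7 smooth muscle markers were present, as they should be in aorta, with a summed level of 8623 to 9766 CPM in the double mutants and of 4298, 19146 and 27474 CPM in ApoE-/- 1, 2 and 3. The 6 adipocyte markers summed to 5145 to 5509 CPM in the double mutants and to 6217, 722 and 816 CPM in ApoE-/- 1, 2 and 3. The 6 kidney tubule markers, at 460 to 511 CPM in the double mutants against 0.174 to 0.967 CPM in ApoE-/-, all rose, where 1.14% of all tested genes were called higher by edgeR. This difference runs with genotype in every library, so the 2 cannot be told apart, and leaving out ApoE-/- 1 does not remove it. The part of kidney RNA in the changes of the 7 genes was not tested. Because ApoE-/- 1 stood apart, results are given with all libraries and without that library.

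None of the 7 genes passed the test with all 6 libraries (edgeR quasi-likelihood test, Benjamini-Hochberg adjustment over 19833 genes, threshold 0.05), in which 1.2% of all tested genes passed, 1.14% higher and 0.0605% lower in the double mutants. Idi1 and Srebf2 had an unadjusted p under 0.05, both lower in the double mutants, against 15.9% of all genes in either direction (8.87% higher and 7.03% lower). DESeq2 called 1 of the 7, Idi1, lower, where 8.56% of all genes were called (6.23% higher and 2.33% lower). Limma-voom called 0, where 1.93% of all genes were called (1.83% higher and 0.101% lower). With sample weights, limma-voom called 3, Hmgcs1 higher and Idi1 and Srebf2 lower, where 16.9% of all genes were called (9.39% higher and 7.49% lower). The weights were 0.155, 1.11 and 0.28 for ApoE-/- 1, 2 and 3 and 2.39 to 2.98 for the double mutants. That weighted fit thus gave ApoE-/- 1 the least weight and is not independent of the fit without it. The median log2 fold change of the 7 was -0.31, beside -0.05 over all tested genes. It was negative in 6 of 7, beside 10621 of 19833 tested genes. Leaving out ApoE-/- 1, it was negative in 4 of 7, beside 9966 of 20177 tested genes, with a median of -0.30 (0.01 over all). Without ApoE-/- 1, Hmgcs1 rose and Idi1 and Srebf2 fell, 3 of 7, where 25.9% of all tested genes passed, 13.1% higher and 12.8% lower. That fit compares 3 libraries with 2. The 3 genes that passed there did not share a direction.

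**Figure D1:**
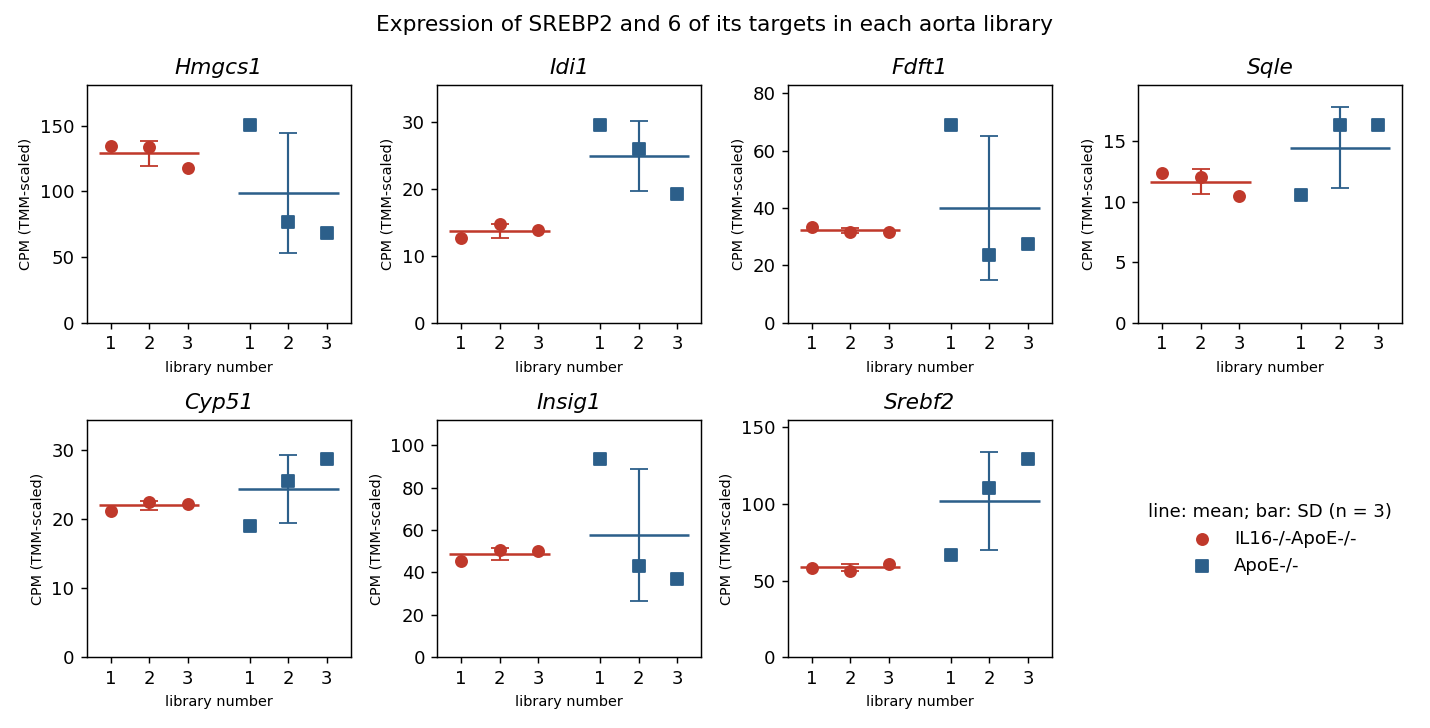
CPM of each of the 7 genes in each library, double mutants as red circles and ApoE-/- as blue squares, with the mean as a line and the SD as a bar (n = 3 each). The double mutant points lie close together, while ApoE-/- 1 is the highest ApoE-/- library for Hmgcs1, Idi1, Fdft1 and Insig1 and the lowest for Sqle, Cyp51 and Srebf2.

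Srebf2 (ENSMUSG00000022463, chromosome 15, 82147181 to 82205379, plus strand, GRCm38), the regulator, measured 58.5, 56.6 and 60.7 CPM in the 3 double mutants, against 66.7, 110 and 129 CPM in ApoE-/- 1, 2 and 3. Every double mutant library lay below every ApoE-/- library, as in 11.5% of all tested genes (26.4% did not overlap in either direction). By edgeR its log2 fold change was -0.80 (SE 0.25, adjusted p = 0.219). Without ApoE-/- 1 it was -1.03 (SE 0.11, adjusted p = 0.00308 by edgeR). Within the ApoE-/- group its order was that of the summed smooth muscle markers, lowest in ApoE-/- 1 and highest in ApoE-/- 3. Beside ApoE-/- 1, the double mutants had a higher smooth muscle sum (8623 to 9766 against 4298 CPM) but less Srebf2. The part of smooth muscle content in the Srebf2 difference was not tested. In whole tissue, fewer cells of a type and less RNA per cell cannot be told apart.

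Hmgcs1 (ENSMUSG00000093930, chromosome 13, 119690379 to 119708260, plus strand) encodes HMG-CoA synthase, which acts early in the mevalonate pathway, in the cytosol. It stood at 135, 134 and 118 CPM in the double mutants, against 151, 76.9 and 68 CPM in ApoE-/- 1, 2 and 3. The double mutants lay below ApoE-/- 1 and above the other two. Its log2 fold change was 0.39 (SE 0.32, adjusted p = 0.578), and 0.83 without ApoE-/- 1 (SE 0.12, adjusted p = 0.00695 by edgeR). The ApoE-/- pattern, with library 1 far above 2 and 3, was shared with the summed adipocyte markers. Of those markers Lep went the other way, at 0.871, 1.09 and 2.05 CPM in ApoE-/- 1, 2 and 3. The part of adipocyte content in the Hmgcs1 difference was not tested. Hmgcs1 and Srebf2 thus moved in opposite directions without ApoE-/- 1, each past the threshold. The difference between the 2 genes was not tested. Hmgcs1 shares 557 of its 4594 exon bases with Gm48342, which had at most 17 counts in a library.

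Idi1 (ENSMUSG00000058258, chromosome 13, 8885501 to 8892451, plus strand) encodes isopentenyl-diphosphate isomerase, which supplies the activated isoprene units. It was at 12.6, 14.7 and 13.9 CPM in the double mutants, against 29.6, 25.9 and 19.2 CPM in ApoE-/-. Every double mutant library lay below every ApoE-/- library, as in 11.5% of all tested genes (26.4% did not overlap in either direction). The nearest libraries were at 14.7 and 19.2 CPM. With all libraries the log2 fold change was -0.86 (SE 0.20, adjusted p = 0.121), -0.72 without ApoE-/- 1 (SE 0.18, adjusted p = 0.0337 by edgeR) and -0.85 in DESeq2 (adjusted p = 0.00986). Over 15 alternatives it ran from -1.02 to -0.72, with adjusted p from 0.00986 to 0.455. Its highest ApoE-/- library, ApoE-/- 1, had the lowest sum of smooth muscle markers and the highest sum of adipocyte markers. Srebf2 was lowest of its group in that library. The part of cell content in the Idi1 difference was not tested.

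Fdft1 and Sqle encode the first committed enzymes of the sterol branch: squalene synthase, which joins 2 farnesyl groups, and squalene epoxidase, a rate-limiting step. Fdft1 (ENSMUSG00000021273, chromosome 14, 63145150 to 63179578, minus strand) had 33.3, 31.6 and 31.6 CPM in the double mutants, against 69.1, 23.7 and 27.3 CPM in ApoE-/-. ApoE-/- 1 was far above all other libraries, and the other 2 ApoE-/- libraries lay below all double mutants. Its log2 fold change was -0.32 (SE 0.41, adjusted p = 0.722) with all libraries and 0.33 (SE 0.12, adjusted p = 0.0931) without ApoE-/- 1, so its direction rests on that library. Fdft1 shares 774 of its 4227 exon bases with Ctsb on the opposite strand, the cathepsin B gene, which was at 3907, 4816 and 4090 CPM in the double mutants and at 3483, 2209 and 866 CPM in ApoE-/-. Without knowing the strand setting of the counting, reads of the 2 genes cannot be told apart there.

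Sqle (ENSMUSG00000022351, chromosome 15, 59315077 to 59331192, plus strand) was at 12.4, 12.1 and 10.5 CPM in the double mutants, against 10.6, 16.4 and 16.4 CPM in ApoE-/-. The double mutants overlapped with ApoE-/- 1 and lay below the other 2. The log2 fold change was -0.31 (SE 0.23, adjusted p = 0.533), and -0.49 without ApoE-/- 1 (SE 0.15, adjusted p = 0.0634). Sqle had the lowest counts of the 7, down to 450 counts in double mutant 3, and Hmgcs1 the highest, up to 12629.

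Cyp51 (ENSMUSG00000001467, chromosome 5, 4081145 to 4104746, minus strand) encodes lanosterol 14-alpha-demethylase, the first step after ring closure on the classical route. It was at 21.2, 22.5 and 22.2 CPM in the double mutants, against 19, 25.4 and 28.6 CPM in ApoE-/-. The double mutants lay within the ApoE-/- range. Its log2 fold change was -0.15 (SE 0.19, adjusted p = 0.717), and -0.30 without ApoE-/- 1 (SE 0.12, adjusted p = 0.124). Cyp51 shares 166 of its 4415 exon bases with Akap9 on the opposite strand, which was at 39.2 to 43.3 CPM in the double mutants and 51.4 to 78.5 CPM in ApoE-/-.

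Insig1 (ENSMUSG00000045294, chromosome 5, 28071363 to 28078662, plus strand) encodes the sterol-controlled INSIG, made on SREBP demand and a brake on SREBP transport. It was at 45.3, 50.7 and 50.1 CPM in the double mutants, against 93.3, 42.9 and 36.8 CPM in ApoE-/-. ApoE-/- 1 was again above, and ApoE-/- 2 and 3 below, every double mutant. The log2 fold change was -0.24 (SE 0.36, adjusted p = 0.759), and 0.29 without ApoE-/- 1 (SE 0.12, adjusted p = 0.132). Its relative Insig2, which is not an SREBP2 target in the usual account, had a log2 fold change of 0.00 (SE 0.15, adjusted p = 0.995), at 40.7 to 46.3 CPM in the double mutants and 38.6 to 48.2 CPM in ApoE-/-. Per kb of transcript, Insig1 stood at 0.517, 0.511 and 0.502 of the Insig2 level in the double mutants, and at 1.12, 0.433 and 0.355 in ApoE-/- 1, 2 and 3.

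The spread within groups separated the double mutants from ApoE-/- for every member. The highest over the lowest library ran from 1.05 (Fdft1) to 1.18 (Sqle) in the double mutants and from 1.51 (Cyp51) to 2.92 (Fdft1) in ApoE-/-. The same held for the whole table, where the common biological coefficient of variation was 0.209 in the double mutants and 0.593 in ApoE-/-. ApoE-/- 1 was the highest library of its group for Hmgcs1, Idi1, Fdft1 and Insig1, as in 41.5% of all tested genes, and the lowest for Sqle, Cyp51 and Srebf2, as in 38%. For the first 4 it was also the highest of all 6 libraries, as in 22.6%.

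**Figure D2:**
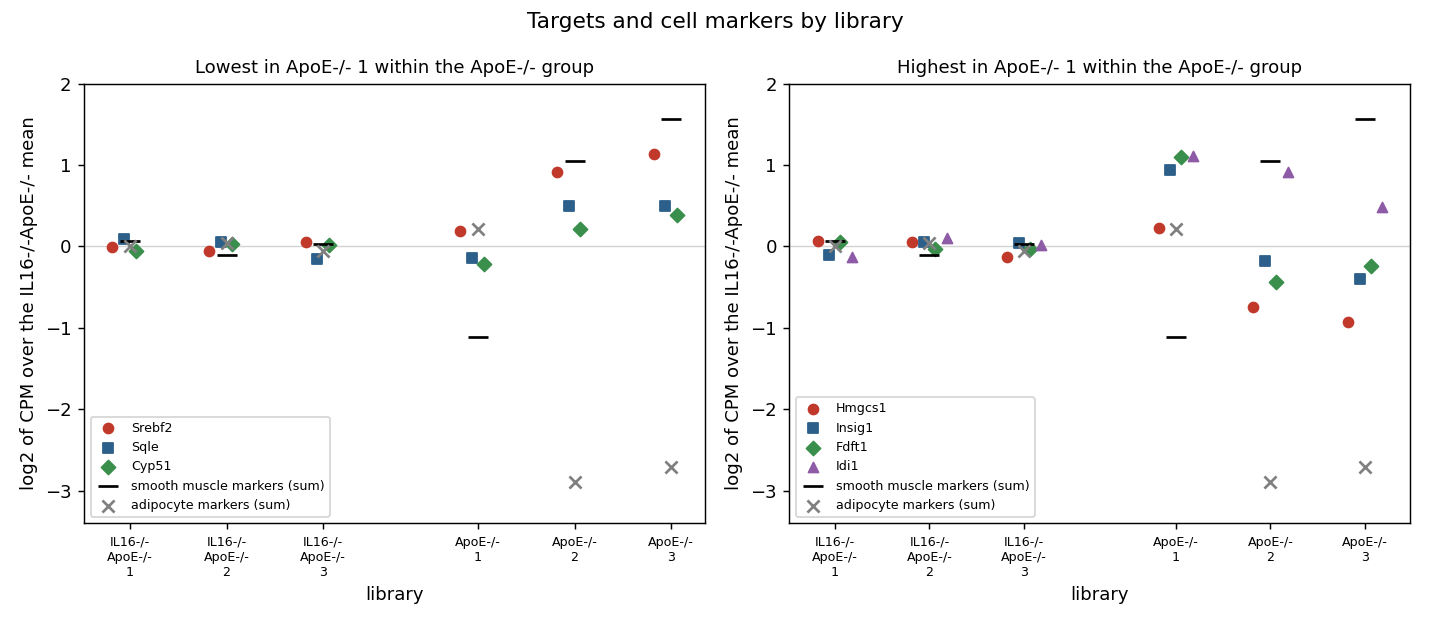
Log2 of each library's CPM over the double mutant mean, for genes lowest (left) and highest (right) in ApoE-/- 1 within its group, with the summed smooth muscle markers (black bars) and adipocyte markers (grey crosses). Each symbol is 1 gene. Within ApoE-/-, the smooth muscle sum is lowest and the adipocyte sum highest in library 1. Idi1 stays above the double mutant mean in all 3 ApoE-/- libraries, while Hmgcs1, Insig1 and Fdft1 are above it in library 1 and below it in 2 and 3.

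Marker sums of other cells moved with these libraries too. Macrophage markers summed to 4381 to 6228 CPM in the double mutants and to 4647, 2274 and 371 CPM in ApoE-/- 1, 2 and 3. Endothelial markers summed to 1163 to 1203 CPM in the double mutants against 589 to 993 CPM in ApoE-/-, Schwann cell markers to 290 to 334 CPM against 180 to 225 CPM in ApoE-/-, and fibroblast markers to 4693 to 5323 CPM against 3648 to 5912 CPM in ApoE-/-. Of these lists and the smooth muscle list, 0 members passed by edgeR with all libraries, where 1.2% of all tested genes passed. Of the 6 adipocyte markers 1, Lep, rose, where 1.14% of all tested genes were higher. Leaving out ApoE-/- 1, all 7 smooth muscle markers fell and all 6 adipocyte markers, 5 of 6 endothelial markers and 2 of 6 Schwann cell markers rose, beside 25.9% of all tested genes called in either direction. In that fit 0 of 6 macrophage and 0 of 6 fibroblast markers passed by edgeR, with 4 and 0 at an unadjusted p under 0.05. Hepatocyte markers summed to 5.62 to 6.97 CPM in the double mutants and to 1.44, 56 and 0.174 CPM in ApoE-/- 1, 2 and 3. Adrenal cortex markers, from a tissue that makes much cholesterol, summed to 5.07 to 5.56 CPM in the double mutants and 4.8 to 7.51 CPM in ApoE-/-, with Cyp11b1 and Cyp11b2 at 0 in all libraries. The part of any of these cells in the changes of the 7 genes was not tested.

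The other enzymes of cholesterol synthesis, 16 genes, gave 0 calls with all libraries by edgeR. Their fold changes were positive in 8 and negative in 8, with 4 at an unadjusted p under 0.05, beside 15.9% of all tested genes. In 5 the double mutants lay below every ApoE-/- library (among them Mvk, Lss, Tm7sf2 and Lbr), beside 11.5% of all tested genes, and in 1 above (Ebp), beside 14.9%. Mvk, mevalonate kinase, was at 10.2, 9.11 and 9.01 CPM in the double mutants, against 12.9, 14.3 and 14.2 CPM in ApoE-/- (log2 fold change -0.55, SE 0.17, adjusted p = 0.212). Lbr, the lamin B receptor with sterol reductase activity, was at 19.8, 21 and 23.7 CPM in the double mutants, against 31.7, 28 and 33 CPM in ApoE-/- (log2 fold change -0.52, SE 0.15, adjusted p = 0.176). DESeq2 called 3 of the 16, all lower, Mvk and Lbr among them, beside 8.56% of all genes in either direction and 2.33% lower.

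With ApoE-/- 1 left out, 5 of the 16 passed, where 13.1% of all tested genes were higher and 12.8% lower. Acat2, which makes acetoacetyl-CoA, rose (log2 fold change 1.12, SE 0.12, adjusted p = 0.00304), as did Ebp, a sterol isomerase (0.88, SE 0.15, adjusted p = 0.0116 by edgeR). The other 3 fell, among them Mvk (-0.60, SE 0.16, adjusted p = 0.0404) and Lbr (-0.51, SE 0.14, adjusted p = 0.0478). With all libraries Acat2 was at 53.1 to 61.9 CPM in the double mutants, against 83.6, 27.1 and 25.3 CPM in ApoE-/-, the order of Hmgcs1, and had a log2 fold change of 0.33 (SE 0.47). Ebp was at 21.8 to 27.3 CPM in the double mutants against 13.2 to 21.5 CPM in ApoE-/- (0.61, SE 0.24, adjusted p = 0.29).

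Further enzymes of the list had log2 fold changes with all libraries of 0.13 (Pmvk), 0.48 (Mvd), 0.02 (Fdps), -0.36 (Lss), -0.75 (Tm7sf2), -0.24 (Msmo1), 0.08 (Nsdhl), -0.03 (Hsd17b7), -0.08 (Sc5d) and 0.27 (Dhcr7). Their SEs ran from 0.15 (Sc5d) to 0.42 (Dhcr7) and their adjusted p from 0.336 (Lss) to 0.971 (Hsd17b7).

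**Figure D3:**
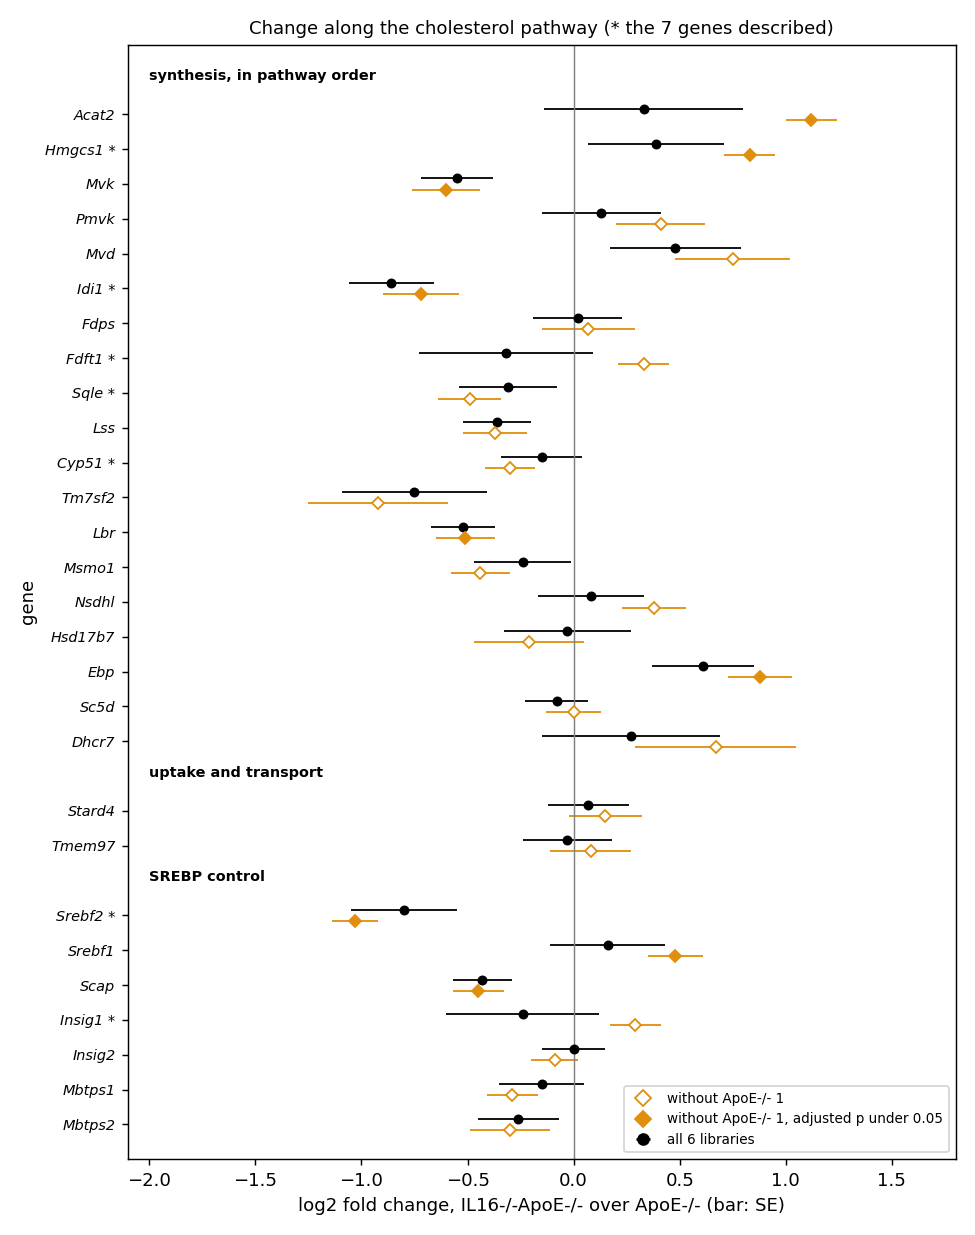
Log2 fold change (double mutants over ApoE-/-) with its SE for genes of synthesis, uptake and SREBP control, black circles with all 6 libraries and orange diamonds without ApoE-/- 1. Diamonds are filled where the adjusted p was under 0.05. With all libraries 0 of these genes passed by edgeR, and without ApoE-/- 1 genes passed on both sides of 0, such as Acat2 and Hmgcs1 above it and Srebf2 and Idi1 below it.

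Among genes of sterol uptake and transport, the sterol carrier Stard4 and Tmem97, which binds NPC1, had log2 fold changes of 0.07 (SE 0.19) and -0.03 (SE 0.21).

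Of the proteins that escort, retain or cleave SREBPs, Scap was at 44.7, 39 and 42.3 CPM in the double mutants. In ApoE-/- it was at 54.8, 61.4 and 53.5 CPM (log2 fold change -0.43, SE 0.14, edgeR adjusted p = 0.214). Scap was thus lower in every double mutant library than in every ApoE-/- library, as in 11.5% of all tested genes (26.4% did not overlap in either direction). Without ApoE-/- 1 it fell (-0.45, SE 0.12, adjusted p = 0.0373 by edgeR). The protease genes Mbtps1 and Mbtps2 had log2 fold changes of -0.15 (SE 0.20) and -0.26 (SE 0.19). Srebf1, whose product drives fatty acid synthesis, was at 132 to 155 CPM in the double mutants and at 173, 108 and 92.7 CPM in ApoE-/- (0.16, SE 0.27, adjusted p = 0.78), and rose without ApoE-/- 1 (0.48, SE 0.13, adjusted p = 0.0451 by edgeR). Per kb of transcript, Srebf1 was 2.4, 2.9 and 2.3 times as abundant as Srebf2 in the double mutants, and 2.75, 1.04 and 0.76 times in ApoE-/- 1, 2 and 3.

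The remaining lists had 0 calls by edgeR with all libraries and 0 by DESeq2, with 1 gene, Ggps1, at an unadjusted p under 0.05. Among 6 ubiquitin ligases and partners in sterol-driven turnover of enzymes of the pathway, the ligase gene March6 had a log2 fold change of -0.18 (SE 0.13, adjusted p = 0.519). Among 5 genes of the prenyl, dolichol and ubiquinone branches, Ggps1, geranylgeranyl-diphosphate synthase, was at 37.8, 32.1 and 37 CPM in the double mutants, against 40.1, 53.5 and 67.1 CPM in ApoE-/- (-0.59, SE 0.21, adjusted p = 0.263), and fell without ApoE-/- 1 (-0.76, SE 0.14, adjusted p = 0.0143). Pdss1, of ubiquinone synthesis, had a log2 fold change of 0.28 (SE 0.24, adjusted p = 0.588). Of 4 LXR targets, which oxysterols raise when cholesterol is plentiful, the cholesterol exporter Abcg1 was at 126, 162 and 141 CPM in the double mutants, against 134, 107 and 17.1 CPM in ApoE-/- (0.73, SE 0.66, adjusted p = 0.604), and Mylip, a ubiquitin ligase gene, had 0.18 (SE 0.22, adjusted p = 0.714). In all, 0 of the 39 tested genes outside the 7 passed by edgeR with every library, 6 had an unadjusted p under 0.05 (1 higher and 5 lower, beside 15.9% of all tested genes), and their median log2 fold change was 0.00. DESeq2 called 3 of the 39, all lower, beside 8.56% of all genes in either direction and 2.33% lower. Without ApoE-/- 1, 9 of the 39 passed, 3 higher and 6 lower, beside 25.9% of all tested genes, so this share was near that of all genes.

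Levels were compared between genes per kb of transcript. In the double mutants Hmgcs1 was at 38.4 ± 2.89 CPM per kb (SD, n = 3), above Insig1 at 18.1 ± 1.1, Srebf2 at 12.9 ± 0.453 and Fdft1 at 9.81 ± 0.299 CPM per kb. Cyp51 at 5.58 ± 0.17, Idi1 at 4.53 ± 0.35 and Sqle at 4.32 ± 0.382 CPM per kb were lowest, and Idi1 and Sqle overlapped. In ApoE-/- Hmgcs1 was at 29.4 ± 13.5, Srebf2 at 22.4 ± 7.05, Insig1 at 21.4 ± 11.5 and Fdft1 at 12.2 ± 7.7 CPM per kb (SD, n = 3). Idi1 was at 8.21 ± 1.74, Cyp51 at 6.19 ± 1.25 and Sqle at 5.36 ± 1.25 CPM per kb there. Compared within each ApoE-/- library, Hmgcs1 was above Insig1 and Insig1 above Fdft1. In ApoE-/- 1, 2 and 3, Hmgcs1 was at 44.9, 22.9 and 20.3 CPM per kb and Insig1 at 34.6, 15.9 and 13.6. Fdft1 was at 21.1, 7.23 and 8.33 CPM per kb there. Srebf2, at 14.6, 24.2 and 28.4 CPM per kb, was below these genes in ApoE-/- 1 and above them in ApoE-/- 2 and 3.

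**Figure D4:**
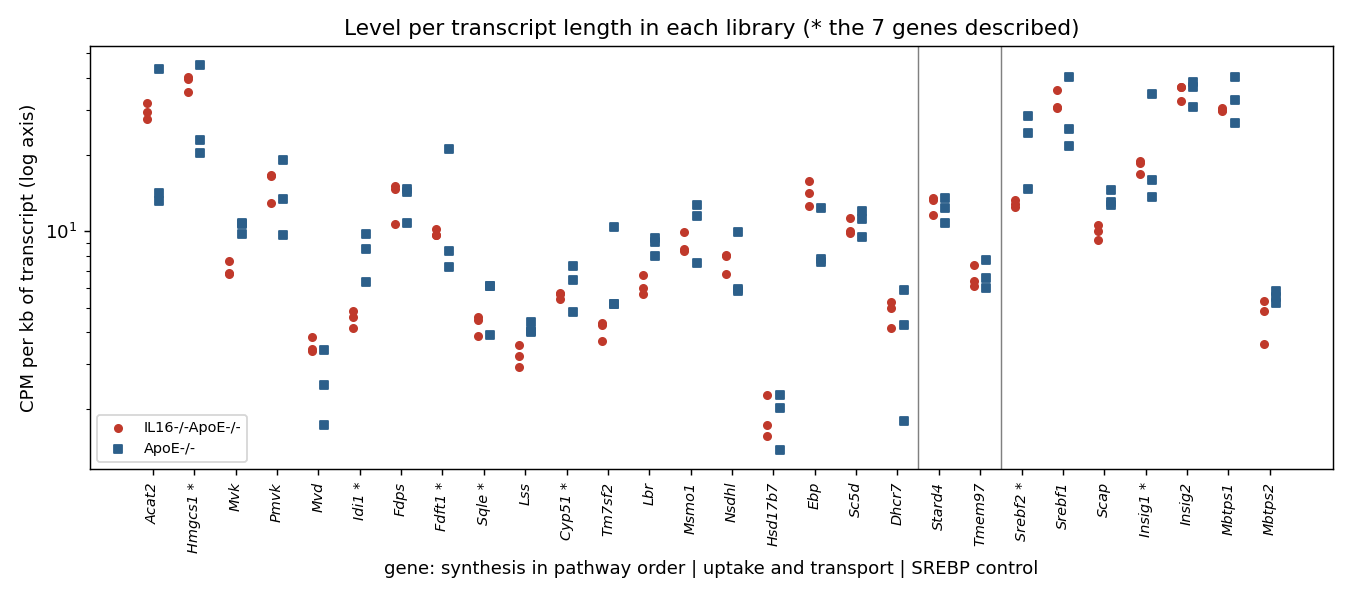
CPM per kb of transcript on a log axis for genes of synthesis, uptake and SREBP control, double mutant libraries as red circles left of ApoE-/- libraries as blue squares. Hmgcs1 and Acat2 are the highest of the synthesis enzymes in the double mutants, at 38.4 and 29.6 CPM per kb on average, and Hsd17b7 the lowest at 1.85.

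The mean of the 7 genes' standardised log2 CPM was -0.32, -0.21 and -0.37 in the double mutants and 0.50, 0.20 and 0.20 in ApoE-/-. Members followed this mean unevenly across the 6 libraries, from a Pearson r of 0.95 for Idi1 to 0.04 for Cyp51 and -0.24 for Hmgcs1. Among 11169 other genes with at least 5 CPM on average, those most like the mean over the 6 libraries were Usp15 (r = 0.995), Usp33 (0.99), C1qtnf3 (0.988), Cyp26b1 (0.986) and Emc7 (0.985). Usp15 and Usp33 encode deubiquitinases, Cyp26b1 a retinoic acid hydroxylase and Emc7 a membrane protein complex subunit. All 5 were lower in every double mutant library than in every ApoE-/- library, as in 11.5% of all tested genes. The mean they were picked to resemble had that order too, so this follows from the pick and is no separate finding. Their log2 fold changes ran from -0.64 (C1qtnf3) to -0.15 (Emc7), and 0 of the 5 passed with all libraries by edgeR (adjusted p 0.181 to 0.582). These values describe 6 libraries ranked over many genes and carry no test.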

How the data were processed

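Polyadenylated RNA of mouse aorta was sequenced from strand-marking libraries, per the labels' protocols. The authors deposited 1 table of raw read counts per gene, whole numbers without normalization, with 1 column per sample. Cutadapt, HISAT2 and StringTie are named per the submitters' processing notes, and genome build, annotation, counting program and its strand setting were: not given in the sources used here. Of 55401 IDs, 55141 matched a GENCODE M21 (GRCm38) symbol, from which positions and the median length of basic transcripts were taken. Groups and numbers 1 to 3 come from the sample titles.

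Genes were kept by filterByExpr (minimum count 10, minimum total 15; 19833 kept), scaled by TMM and compared with edgeR 4.0.16's quasi-likelihood test (two-sided, robust, no covariate), Benjamini-Hochberg adjusted over all tested genes, threshold 0.05. The SE is the size of the log2 fold change over the square root of F. Log2 CPM used a prior count of 2. Tried as alternatives were factors by upper quartile, RLE or plain library totals, no filter or 1 asking for 1 CPM in 3 libraries, DESeq2 1.42.0, limma 3.58.1 (voom, with and without sample weights), each library left out and a replicate block. The fit was tested on simulated data. Computations used R 4.3.3 and Python 3.11.15. The 7 genes and the lists were chosen with earlier results of these data known. Named were the 7 genes, all synthesis, uptake and control genes, the 2 with the smallest p of each other pathway list, the 5 most like the members, and Il16 and Apoe. Some genes that this rule names are not reported here, though the counts of the lists include them.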

Additional observations from a re-analysis of the deposited data

How the results depend on the processing

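Of 660 values of single genes under 15 alternatives, 597 kept their direction and their side of the threshold, 31 passed where they had not, 6 no longer passed and 26 changed sign. With all libraries 238 genes passed, 0 of the 7 and 0 of the 39 other pathway genes. DESeq2 called 1697 genes, 1 of the 7 (Idi1) and 3 of the 39. Limma-voom called 382 genes, none of them in either list. Its fit with sample weights called 3348 genes, 3 of the 7 and 6 of the 39. Leaving out 1 library gave 0 to 5231 calls, 0 to 3 of the 7 and 0 to 9 of the 39, each highest without ApoE-/- 1. Without any 1 double mutant library 0 genes passed by edgeR, with 1920 to 2042 at an unadjusted p under 0.05, and without ApoE-/- 2 there were 108. The cause was not tested. Same-numbered samples did not deviate together (correlations -0.04 to -0.0095, where the highest correlation with another number was 0.0803 to 0.0898). With 3 libraries per group this cannot exclude a shared batch. A replicate block gave 0 calls by edgeR, also 0 of the 7 and 0 of the 39 (2327 genes at an unadjusted p under 0.05).

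Signs changed in limma-voom with sample weights for Fdft1 (0.24), Insig1 (0.10) and Insig2 (-0.05), and in limma-voom for Hsd17b7 (0.00). With 1 library left out the log2 fold change ran from -0.58 to 0.33 for Fdft1, -0.49 to 0.29 for Insig1, -0.08 to 0.41 for Pmvk, -0.10 to 0.16 for Fdps, -0.05 to 0.38 for Nsdhl, -0.21 to 0.13 for Hsd17b7, -0.08 to 0.67 for Dhcr7, -0.01 to 0.15 for Stard4, -0.11 to 0.08 for Tmem97, -0.09 to 0.06 for Insig2, -0.29 to 0.01 for Mbtps1, -0.01 to 0.48 for Srebf1 and -0.02 to 0.39 for Mylip. Srebf2 ran from -1.03 to -0.60 and Hmgcs1 from 0.18 to 0.83 over 15 alternatives. The SEs and SDs given here include the spread among samples.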
